A study of Mus musculus with 15 samples.

Results

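Oligodendrocyte precursors and the newly formed oligodendrocytes that arise from them were followed through 10 of their marker genes in whole-brain RNA-seq of mice fed ad libitum (AL) or every other day (EOD). The genes were Pdgfra, Cspg4, Vcan and Lhfpl3, known from precursors, and Gpr17, Bmp4, Neu4, Enpp6, Bcas1 and Tcf7l2, known from cells that leave the precursor state. They were taken by name, with no threshold on their values, but earlier results of these data were known when they were chosen. Shares over all genes are therefore set beside them for scale and are no test of the set. Of the 10, 9 were found among the 43629 genes listed (Lhfpl3 was not analysed here). All mice were wildtype C57BL/6J males, either young (3 months) or old (24 months). The AL groups held 4 young and 4 old mice and the EOD groups 3 young and 4 old mice, with 1 library per mouse. EOD mice had free access to food on one day and none on the next, a regimen begun in early adulthood, so that young EOD mice had followed it only briefly and old EOD mice for most of their lives. The labels call this diet intermittent fasting.

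Oligodendrocyte precursors are dividing cells that persist throughout the adult brain and are recognised by the PDGF receptor alpha and the proteoglycan NG2. When a precursor commits to differentiation, it loses these markers, passes through a short stage in which GPR17 and BCAS1 are abundant, and then either dies or becomes a myelinating oligodendrocyte that expresses Mbp and other myelin genes. These intermediate stages make up only a small part of the brain's cells, and their markers are used to trace cells in the course of differentiation. In whole-brain RNA, fewer cells of a type and less RNA per cell cannot be told apart.

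Gpr17 fell with age, and it was the only one of the 9 genes that passed the test in any comparison. Of all genes tested, 2.30% passed in the comparison in which it did, that of age averaged over the diets. Its level differed by -32.2% in old mice (fold 0.678, 95% interval -41.7% to -21.2%), and each of the 8 old mice lay below each of the 7 young mice. Bcas1 had higher values in old AL mice than in young AL mice without passing the test, and the level of Pdgfra, the main precursor marker, differed by -1.31% between ages with an interval of -10.0% to 8.23%. No diet difference passed the test for any of the 9 genes.

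The libraries held between 5198748 and 13610729 counts (median 9886766). All 9 genes passed the filter on low counts, as did 15864 genes in all, and levels are given as CPM, the counts scaled to library size and composition. The third young AL mouse stood apart from the other libraries, with the highest total count but 17280 genes detected against 19054 to 20880 in the other mice, and a median correlation with the other libraries of 0.957 against 0.980 to 0.987. Results are therefore also given without it where it mattered. Libraries were spread over 3 sequencing lanes, and lane 3 held no young EOD mouse.

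Levels of different genes can be compared only per length of transcript. On the scale of RPKM, which divides the CPM by the exonic length in kilobases, Bcas1 was the most abundant of the 9 genes with a mean level over all mice of 39.3 ± 4.21 (SD, n = 15). Pdgfra followed with 11.1 ± 0.820 and Gpr17 with 8.68 ± 2.14. The mean RPKM was 4.64 for Tcf7l2 and lay between 1.20 for Bmp4 and 2.27 for Enpp6 in the others. Bmp4 was the most thinly sampled gene, with 13 to 51 reads per mouse, whereas Bcas1 had 737 to 1894.

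**Figure D1:**
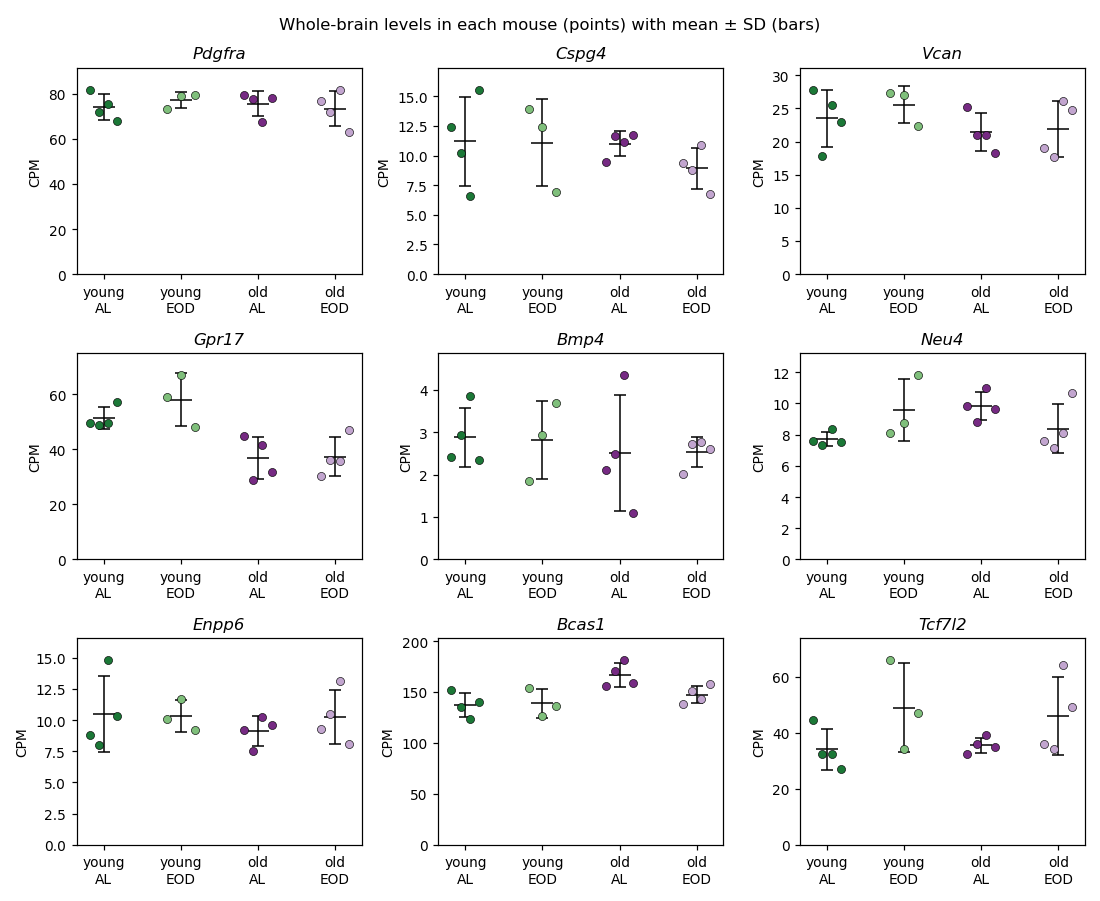
Level in CPM (vertical axis, from 0) of each of the 9 genes in every mouse, with 1 point per mouse and bars for the mean ± SD of each group (n = 4, and n = 3 for young EOD). The old mice lie below the young mice in Gpr17, the old AL mice lie above the young AL mice in Bcas1 and Neu4, and the groups overlap by age in the other genes.

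Gpr17 encodes a G protein-coupled receptor that marks committed precursors and holds them back from terminal maturation (ENSMUSG00000052229, GRCm38 chromosome 18, 31942997 to 31949636, minus strand). Its level was 49.5, 48.9, 49.7 and 57.2 CPM in the young AL mice and 59.1, 67.1 and 48.0 CPM in the young EOD mice. It was 45.0, 28.9, 41.6 and 31.7 CPM in the old AL mice and 30.2, 36.3, 35.8 and 47.1 CPM in the old EOD mice. The highest old mouse, an EOD mouse, lay just below the lowest young mouse, also an EOD mouse.

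The age difference of Gpr17 averaged over the diets was -0.56 on the log2 scale (SE 0.104, edgeR quasi-likelihood test, FDR 0.00468). It ranked 85th by p among all genes tested and 8th among those with lower values in old mice. Genes that passed an FDR of 0.1 with lower values in old mice made up 0.681% of those tested, and 1 of the 9 genes was among them. All old mice lay below all young mice in 0.151% of the genes tested, and in 0.901% the ages did not overlap in one direction or the other. Within AL mice the log2 difference of Gpr17 was -0.49 (SE 0.143, FDR 0.161 with edgeR) and within EOD mice it was -0.63 (SE 0.152, FDR 0.138 with edgeR). Neither passed alone, and their difference of -0.14 had an interval of -0.58 to 0.29, so that a diet dependence of the age difference was not detected.

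Old mice had lower mean levels of Gpr17 than young mice in each sequencing lane. Old minus young mice gave -0.49 on the log2(CPM + 1) scale in lane 1 (3 young and 2 old mice), -0.61 in lane 2 (3 and 3) and -0.59 in lane 3 (1 and 3). Without the third young AL mouse the log2 difference was -0.56 (edgeR FDR 0.00528), and it then also passed the test within EOD mice (edgeR FDR 0.0990). The gene Lims2, which lies on the opposite strand and overlaps Gpr17, had 1436 reads in all against 6356 for Gpr17. The counting separated the strands, and Lims2 itself differed by -0.16 on the log2 scale between ages (SE 0.114, edgeR FDR 0.613).

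Pdgfra encodes the receptor through which PDGF-AA keeps precursors dividing (GRCm38 chromosome 5, 75152291 to 75198204, plus strand). Its level was 81.7, 71.8, 75.6 and 68.1 CPM in young AL mice and 73.1, 79.1 and 79.4 CPM in young EOD mice. Old AL mice had 79.3, 77.6, 67.7 and 78.2 CPM and old EOD mice 76.8, 71.9, 81.9 and 63.3 CPM. The 4 groups overlapped almost completely. Averaged over diets, old and young mice differed by -0.02 on the log2 scale (SE 0.0640, 95% interval -0.15 to 0.11, edgeR FDR 0.944), which made Pdgfra the most narrowly bounded of the precursor genes.

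Cspg4 encodes the proteoglycan NG2, which precursors share with the pericytes of small blood vessels (chromosome 9, 56865104 to 56899870, plus strand). Levels were low and variable at 12.4, 10.3, 6.57 and 15.6 CPM in young AL mice, 13.96, 12.4 and 6.97 CPM in young EOD mice, 9.45, 11.7, 11.2 and 11.8 CPM in old AL mice, and 9.38, 8.76, 10.9 and 6.73 CPM in old EOD mice. The spread within young mice covered the whole range of the old AL mice. The age difference averaged over diets was -0.17 (SE 0.170, 95% interval -0.52 to 0.19, edgeR FDR 0.766).

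Vcan encodes versican, a chondroitin sulfate proteoglycan that precursors deposit in the extracellular matrix (chromosome 13, 89655312 to 89742509, minus strand). Its level ranged from 17.8 to 27.8 CPM in young AL mice, 22.3 to 27.3 in young EOD mice, 18.3 to 25.2 in old AL mice and 17.6 to 26.1 in old EOD mice. Old and young mice overlapped. The log2 age difference averaged over diets was -0.18 (SE 0.110, 95% interval -0.41 to 0.05, edgeR FDR 0.558). The Gpr17 estimate of -0.56 lay outside this interval and outside those of Pdgfra and Cspg4. The interval of Gpr17 itself, -0.78 to -0.34, overlapped those of Vcan and Cspg4, so the intervals do not separate these genes from Gpr17. With 1 mouse left out, the averaged Cspg4 difference ranged from -0.29 to -0.05.

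Among the other genes of differentiating cells, Bmp4 and Enpp6 did not separate the groups. Bmp4 encodes a secreted ligand that committed precursors produce (chromosome 14, 46383520 to 46390669, minus strand), and its level ranged from 1.09 to 4.35 CPM within the old AL mice alone. Its log2 age difference of -0.22 had an SE of 0.252 and an interval of -0.74 to 0.31, which includes both no difference and one as large as that of Gpr17. Enpp6 encodes a choline phosphodiesterase of newly formed oligodendrocytes (chromosome 8, 46986925 to 47094895, plus strand). Its level was 8.80, 7.97, 14.8 and 10.3 CPM in young AL mice, 10.1, 11.7 and 9.20 in young EOD mice, 9.20, 7.48, 10.2 and 9.58 in old AL mice, and 9.30, 10.5, 13.2 and 8.08 in old EOD mice. The third young AL mouse was the highest of all. Its log2 age difference was -0.11 (SE 0.142, edgeR FDR 0.831), and without that mouse it was 0.01 (SE 0.122).

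Neu4 encodes a sialidase that newly formed oligodendrocytes express (chromosome 1, 94020451 to 94028334, plus strand). Its level was 7.59, 7.33, 8.39 and 7.53 CPM in young AL mice and 8.11, 8.77 and 11.8 CPM in young EOD mice. Old AL mice had 9.82, 8.79, 10.97 and 9.67 CPM and old EOD mice 7.62, 7.17, 8.10 and 10.7 CPM. Every old AL mouse lay above every young AL mouse, while the ages overlapped under EOD. The log2 age difference was 0.34 in AL mice (SE 0.163, edgeR FDR 0.525) and -0.19 in EOD mice (SE 0.176, edgeR FDR 0.991), and the difference between them was -0.53 (SE 0.239, 95% interval -1.02 to -0.03, unadjusted p 0.0398, edgeR FDR 0.9998). It did not pass the adjustment over all genes, of which 362 had an unadjusted p under 0.05 for the interaction and 0% were called.

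**Figure D2:**
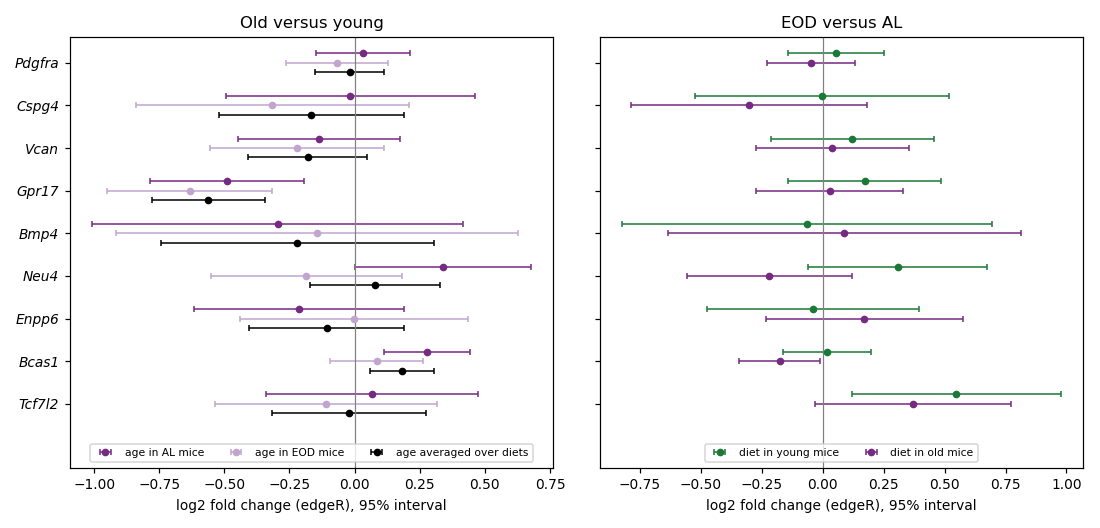
Log2 fold change of the 9 genes with its 95% interval from edgeR (horizontal axes), old versus young mice on the left (AL mice, EOD mice and both averaged) and EOD versus AL mice on the right (young and old mice). All 3 age intervals of Gpr17 lie below 0. The age intervals of Bcas1 in AL mice and averaged, and that of Neu4 in AL mice, lie above 0. The diet interval of Tcf7l2 in young mice lies above 0 and that of Bcas1 in old mice below 0. Only the averaged age difference of Gpr17 passed the FDR.

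Bcas1 encodes a protein of myelin-forming cells that is abundant in early myelinating oligodendrocytes and remains present in myelin (chromosome 2, 170346991 to 170427845, minus strand). Its level was 151, 135, 123 and 140 CPM in young AL mice and 154, 127 and 136 CPM in young EOD mice. Old AL mice had 156, 171, 181 and 159 CPM, and old EOD mice had 138, 151, 143 and 158 CPM. Old AL mice lay above all young AL mice, whereas old EOD mice overlapped with young EOD mice. Gpr17, Neu4 and Bcas1 were the 3 of 9 genes in which the ages did not overlap under AL, beside 4.56% of all genes tested.

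The log2 age difference of Bcas1 was 0.28 in AL mice (SE 0.0795, 95% interval 0.11 to 0.44, edgeR FDR 0.145) and 0.08 in EOD mice (SE 0.0863, edgeR FDR 0.995). Averaged over diets it was 0.18 (SE 0.0587, 95% interval 0.06 to 0.30, edgeR FDR 0.167). Under AL, 1.09% of the genes tested passed the test and under EOD 0.290%, and 0 of the 9 genes passed in either. Bcas1 was called in AL mice only in some alternatives to the main fit. DESeq2 gave an FDR of 0.0677 and the edgeR fit without the first young AL mouse 0.0759. Over the 15 fits that left out a mouse, the AL difference of Bcas1 ranged from 0.23 to 0.34, with edgeR FDRs from 0.0759 to 0.484. The third young AL mouse, which stood apart from the other libraries, had the lowest Bcas1 level at 123 CPM. Between lanes the difference of old and young mice over both diets was 0.0012 in lane 1, 0.38 in lane 2 and 0.13 in lane 3 on the log2(CPM + 1) scale. The antisense genes Bcas1os1 and Bcas1os2 overlap Bcas1 and held 3409 reads against 20887.

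Across the 15 mice, Bcas1 followed the genes of mature myelin. Its log2(CPM + 1) level was correlated with the mean log2(CPM + 1) level of 19 mature myelin genes with r = 0.803 (permutation p 0.00028, adjusted over 6 such relations 0.00168) and Spearman's rho = 0.789 (permutation p 0.00057, adjusted 0.00342). The permutations moved mice freely between groups, so these p-values do not separate differences between groups from those between mice of a group. Without the 2 mice farthest from the median of the myelin genes r was 0.728, and after the group means were subtracted it was 0.771. It was 0.741 without the third young AL mouse. In lane 2, the only lane with at least 6 mice, r was 0.946. The same measure for Gpr17 and 18 other genes of newly formed oligodendrocytes was r = 0.421 (permutation p 0.119, adjusted 0.179) with rho = 0.368 (permutation p 0.178, adjusted 0.266), or r = 0.239 without the 2 farthest mice. For Pdgfra and 18 other precursor genes it was r = 0.166 (permutation p 0.557, adjusted 0.669) with rho = 0.196 (permutation p 0.481, adjusted 0.569), or r = 0.378 without the 2 farthest mice.

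Tcf7l2 encodes a transcription factor of the Wnt pathway that is switched on transiently in newly formed oligodendrocytes and is also strongly expressed by neurons of the thalamus and habenula (chromosome 19, 55741810 to 55933654, plus strand). Its level was 44.3, 32.3, 32.3 and 26.9 CPM in young AL mice and 65.8, 34.04 and 46.9 CPM in young EOD mice. Old AL mice had 32.5, 35.8, 39.0 and 34.9 CPM, and old EOD mice had 35.9, 34.02, 64.1 and 49.0 CPM. At both ages some EOD mice exceeded all AL mice of the same age while others lay within their range.

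The log2 diet difference of Tcf7l2 was 0.55 in young mice (SE 0.206, 95% interval 0.12 to 0.98, unadjusted p 0.0147, edgeR FDR 0.996) and 0.37 in old mice (SE 0.193, 95% interval -0.03 to 0.77, edgeR FDR 0.9999). No gene passed the test for diet, at 0% in young mice and 0% in old mice, while 657 and 409 genes had an unadjusted p under 0.05. Averaged over diets, the age difference of Tcf7l2 was -0.02 (SE 0.142, edgeR FDR 0.9747). Its levels moved with those of 14 genes of thalamic and habenular neurons (r = 0.595, permutation p 0.0184, adjusted 0.0371, rho = 0.632, permutation p 0.0136, adjusted 0.0273). The correlation was 0.652 without the 2 farthest mice, 0.671 after subtraction of the group means and 0.738 in lane 2. The summed level of these 14 genes was 898 to 1150 CPM in young AL mice, 1077 to 1210 in young EOD mice, 962 to 1150 in old AL mice and 900 to 1078 in old EOD mice, with none at 0 in any group, and their part in the diet values of Tcf7l2 was not tested.

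Cspg4 moved in a like way with 10 pericyte genes (r = 0.604, permutation p 0.0185, adjusted 0.0371, rho = 0.689, permutation p 0.00600, adjusted 0.0180). The correlation was 0.583 without the 2 farthest mice, 0.567 after subtraction of the group means, 0.743 without the third young AL mouse and 0.352 in lane 2. Summed pericyte levels were 198 to 232 CPM in young AL, 201 to 216 in young EOD, 186 to 210 in old AL and 175 to 192 in old EOD mice, with none of the 10 genes at 0, and their part in the values of Cspg4 was not tested. Pdgfra, which meningeal fibroblasts also express, had little relation with 10 genes of those cells (r = 0.0113, permutation p 0.969, adjusted 0.969, rho = 0.161, permutation p 0.569, adjusted 0.569, and r = 0.236 without the 2 farthest mice), whose summed level was 174 to 285 CPM over all mice with none at 0. None of the pericyte, fibroblast or thalamic genes passed the test in any comparison.

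**Figure D3:**
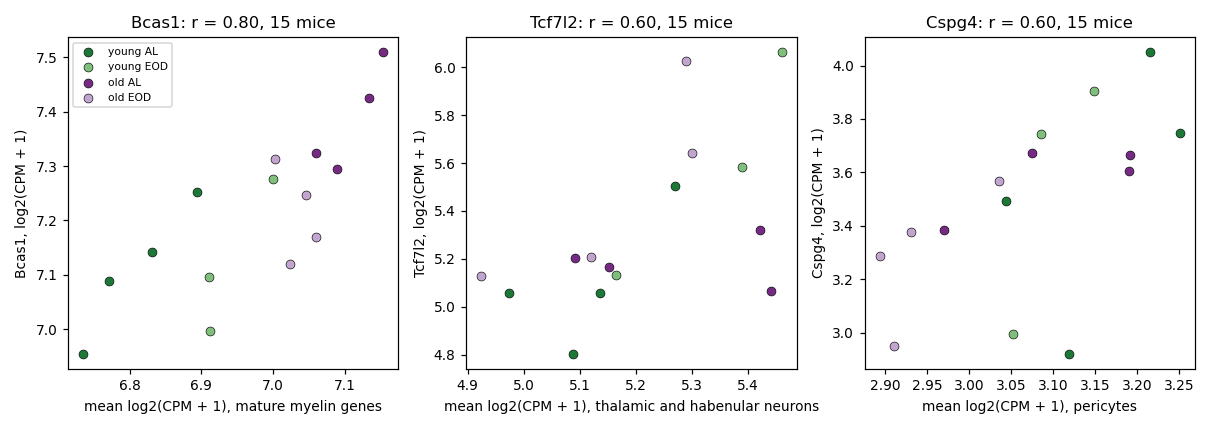
Level of Bcas1, Tcf7l2 and Cspg4 (vertical axes, log2(CPM + 1)) against the mean level of mature myelin genes, thalamic and habenular neuron genes and pericyte genes (horizontal axes, mean log2(CPM + 1)), with 1 point per mouse coloured by group. Mice with higher levels of the myelin genes have higher levels of Bcas1 (r = 0.80), and the points of the other relations scatter more widely (r = 0.60 each).

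The remaining diet differences of the 9 genes did not pass the test either. In young mice Gpr17 differed by 0.17 between EOD and AL on the log2 scale (95% interval -0.14 to 0.49) and in old mice by 0.03 (-0.27 to 0.33). Bcas1 differed by 0.02 in young mice (-0.16 to 0.20) and by -0.18 in old mice (-0.34 to -0.01, unadjusted p 0.0381, edgeR FDR 0.9999). Pdgfra differed by 0.05 in young mice (-0.14 to 0.25) and by -0.05 in old mice (-0.23 to 0.14).

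Wider sets of lineage genes were counted beside the 9. Averaged over diets, 257 of all 15864 genes tested rose and 108 fell. Of the 9 genes, 7 had lower values in old mice and the median log2 age difference averaged over diets was -0.11, against -0.0049 over all genes tested, of which 51.5% were negative. Without the third young AL mouse the median was -0.03 and 6 were negative. Of 18 other precursor markers none passed the test, 12 were negative and the median was -0.05. Luzp2, the one with the highest level per length, differed by -0.10 (SE 0.0904, edgeR FDR 0.708).

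Of 18 tested genes of 20 listed for newly formed oligodendrocytes, 1 fell, 14 were negative and the median was -0.09. The gene that fell was Fyn, a kinase that acts early in myelination, with a log2 age difference of -0.16 (SE 0.0443, edgeR FDR 0.0884), and it kept this call in only 1 of the 15 fits that left out a mouse, with FDRs of up to 0.222 in the others. Itpr2, an intracellular calcium channel often used to mark these cells, had values in the other direction (0.31, SE 0.0971, edgeR FDR 0.158). Gpr17 kept its call in 15 of those 15 fits. The cells that contributed the reads of Fyn and the other listed genes cannot be told apart in whole brain.

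Among 13 transcription factors of the lineage 1 rose and 0 fell. It was Myrf, the regulator that switches on myelin genes, which had 52.0 ± 9.75 CPM in young AL, 58.5 ± 7.85 in young EOD, 74.9 ± 11.3 in old AL and 66.1 ± 3.26 in old EOD mice (SD, n = 4, 3, 4 and 4). Its log2 age difference was 0.52 in AL mice (SE 0.123, edgeR FDR 0.0464) and 0.35 averaged over diets (SE 0.0908, edgeR FDR 0.0612). The call in AL mice was lost without the second or the third young AL or the first or the third old AL mouse. Without the third young AL mouse the AL value was 0.43 (edgeR FDR 0.126) and the averaged value 0.30 (edgeR FDR 0.0741). The averaged call was kept in 9 of 15 fits that left out a mouse, and was lost without the second young AL, the second or the third young EOD, the third old AL, and the second or the third old EOD mouse. Olig1, the factor with the highest level per length, differed by 0.13 (SE 0.110, edgeR FDR 0.705).

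The mature myelin genes that passed the test had the opposite direction to Gpr17. Averaged over diets, 8 of 19 rose, beside 257 of all 15864 genes tested, and 0 fell. Of the 19, 15 were positive, 4 were negative and the median was 0.20. Apod, a lipid carrier of oligodendrocytes, had the largest log2 difference at 0.80 (SE 0.0569, edgeR FDR 1.09e-08), followed by Trf, the iron carrier transferrin, at 0.55 (SE 0.0823, edgeR FDR 0.000425). Klk6, Ermn, Hapln2, Car2, Aspa and Mbp also rose, with Mbp, a main structural protein of myelin, at 0.29 (SE 0.0682, edgeR FDR 0.0346). The same 8 genes were called without the third young AL mouse, where the median was 0.16.

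Summed over the 19 myelin genes, the level was 7002 to 8259 CPM in young AL mice, 7767 to 8392 in young EOD mice, 8493 to 9266 in old AL mice and 8019 to 8698 in old EOD mice. Within AL mice 7 of the genes rose, 17 were positive, 2 were negative and the median log2 difference was 0.25. Within EOD mice 2 rose, Apod and Car2, while 10 were positive, 9 were negative and the median was 0.14. Over all 15864 genes tested, 150 rose in AL mice and 41 in EOD mice, so that calls were fewer under EOD in general. The interaction passed the test for none of them. Of the calls averaged over diets, Apod, Car2, Ermn, Klk6 and Trf were kept in every fit that left out a mouse. Mbp lost its call without the second young EOD mouse (edgeR FDR 0.132), Aspa without the first or the second young EOD mouse, and Hapln2 without the second young EOD, the second or the third old AL, or the second or the third old EOD mouse. Within AL mice Klk6 lost its call without the second old AL mouse, Mbp without the second or the third of either AL group, and Aspa without the second or the fourth young AL or the first, the second or the fourth old AL mouse.

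**Figure D4:**
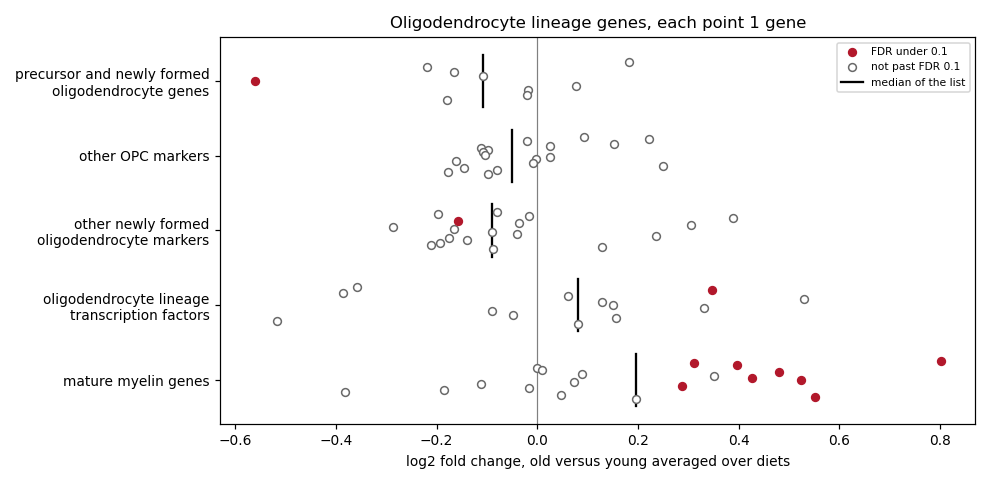
Log2 fold change of old versus young mice averaged over diets (horizontal axis) for every tested gene of the lineage, grouped by stage, with filled points for genes past an FDR of 0.1 and a line at the median of each group. Gpr17 is the filled point at -0.56 in the top row, and the 8 filled points of the mature myelin genes all lie to the right of 0. Fyn at -0.16 and Myrf at 0.35 are the filled points of their rows.

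The pathways to which the 9 genes belong held few calls. PDGF signalling supports precursor division, and 0 of 5 other ligand and receptor genes passed the test. Pdgfa, the ligand of the receptor on precursors, differed by -0.04 (SE 0.0894, edgeR FDR 0.901), and Pdgfrb, the receptor on pericytes, by -0.26 (SE 0.0909, edgeR FDR 0.209). BMP signalling holds back oligodendrocyte differentiation, and 0 of 20 other genes passed, with -0.48 for the ligand Bmp2 (SE 0.188, edgeR FDR 0.289) and -0.11 for the target Id2 (SE 0.102, edgeR FDR 0.728).

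In the Wnt pathway, with which Tcf7l2 acts, 1 of 18 tested genes fell and 0 rose. This was Apcdd1, an inhibitor of the pathway, at -0.38 (SE 0.0972, edgeR FDR 0.0519), a call kept in 10 of 15 fits that left out a mouse. It was lost without the first young AL, the first or the third young EOD, the first old AL or the fourth old EOD mouse. Ctnnb1, which encodes beta-catenin, differed by -0.02 (SE 0.0426, edgeR FDR 0.902). Among 9 tested matrix genes related to versican, Ncan, which encodes neurocan, fell by 0.23 on the log2 scale (SE 0.0613, edgeR FDR 0.0624), and 0 rose. The call of Ncan was kept in 8 of 15 such fits and was lost without the first or the second young EOD, the first, the third or the fourth old AL, or the third or the fourth old EOD mouse. The matrix gene Cspg5 differed by -0.0036 (SE 0.0601, edgeR FDR 0.991).

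Of 16 genes of cell division, 10 passed the filter on low counts. Averaged over diets, 1 of these fell and 0 rose, while 6 were negative, 4 were positive and the median was -0.16. Top2a, a topoisomerase of dividing cells, fell with age at 2.33 ± 0.804 CPM in young AL, 1.76 ± 0.993 in young EOD, 0.993 ± 0.396 in old AL and 0.647 ± 0.267 in old EOD mice (SD, n = 4, 3, 4 and 4). Its log2 difference averaged over diets was -1.30 (SE 0.328, edgeR FDR 0.0504), and the call was kept in 10 of 15 fits that left out a mouse and lost without the first or the second young EOD, the second old AL, or the second or the fourth old EOD mouse. The level of Top2a was low, with a mean RPKM of 0.157 against 1.20 for Bmp4, which limits what can be read from its difference. Cenpf, a kinetochore protein made before division, differed by -0.98 (SE 0.292, edgeR FDR 0.118), and was called without the third young AL mouse (-1.0004, edgeR FDR 0.0731). Pcna, a DNA replication clamp, differed by 0.16 (SE 0.101, edgeR FDR 0.565). The cells that contributed these reads cannot be told apart in whole brain.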

How the data were processed

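RNA from snap-frozen whole brains was sequenced with 50 bp single-end reads, with 1 library for each of 15 mice. The authors trimmed the reads, aligned them with STAR to Ensembl GRCm38 and counted them by strand on release 79 genes with featureCounts 1.5.0-p1 at a mapping quality of at least 5. The deposited values are raw counts per gene. Groups follow the labels, and coordinates are those of the files.

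Symbols were matched by Ensembl identifier for 42462 of 43629 genes. edgeR 4.0.16 in R 4.3.3 fitted 4 group means with TMM factors (filterByExpr, quasi-likelihood test, Benjamini-Hochberg adjustment over 15864 genes, FDR under 0.1). Standard errors were derived from the fold change and the F statistic (absolute log2 fold change over root F), and intervals are 95%. The common biological coefficient of variation was 0.119. DESeq2 1.42.0 and limma 3.58.1 served as alternatives. Fits were tested on simulated counts. Correlations used log2(CPM + 1) and 100000 permutations (scipy 1.17.1). The 9 genes and the lists were chosen with earlier results of these data known. From each list, genes past the FDR in any comparison, the gene with the smallest p for age in AL mice and the gene with the highest level per length could be named. Genes named outside this rule, Lims2 and the antisense genes of Bcas1, were chosen after their values were seen.

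Replicates were compared before averaging, and no pair within a group agreed within sampling noise. The sequencing lane was read from the file headers. With 1 library per mouse, technical and biological spread cannot be separated.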

Additional observations from a re-analysis of the deposited data

Results flagged for a closer look

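In groups of 4 mice, 27 sets of values were examined for a mouse far from the others, and chance marks about 1 in 20. The Gpr17 level of the fourth young AL mouse, 57.2 CPM, was one of these, and its gap to the nearest mouse was 0.906 of the range of its group. Without this mouse the age difference of Gpr17 averaged over diets was -0.53 on the log2 scale (edgeR FDR 0.0111). The Pdgfra level of the third old AL mouse, 67.7 CPM, was the other, with a gap of 0.847 of the range. That library had the lowest total count.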

How the results depend on the processing

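The decrease of Gpr17 averaged over diets passed the test in all 23 alternatives, with log2 differences from -0.66 to -0.51 and FDRs of up to 0.0255. Of 1278 alternative values of single genes, 1201 kept direction and call, 15 gained a call, 62 changed sign (none of them called) and 0 lost a call. Only this decrease of Gpr17 was called in the main fit, so only its 23 alternatives could lose a call. Genes with few reads, above all Bmp4, limit what can be read from their differences. The cause of the changes below was not tested.

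For age in AL mice, 173 genes and 0 of the 9 were called. With every gene of at least 1 count 444 and 2 (Gpr17 and Bcas1) were called, with DESeq2 2 of the 9, with limma voom 1 of the 9 and with only the groups compared 86 genes. For age in EOD mice, with 46 genes and 0 of the 9 called, DESeq2 gave 70 and 1, every gene 100 and 1, voom 125 and 1, and only the groups compared 1 of the 9, each time Gpr17. Averaged over diets, 365 genes became 653 with every gene, 229 at an FDR under 0.05 and 237 with lane as a covariate. For diet in young mice, where 0 were called, DESeq2 gave 1 gene and every gene 26. The latter held 1 of the 9, Tcf7l2 (FDR 0.0107, against 0.996 in the main edgeR fit). The fit of every gene had no filter on low counts. Its smallest FDR in this comparison was 3.5e-16, against 0.501 in the main fit, so its calls are uncertain. For diet in old mice every gene gave 27, lane as a covariate 2 and voom 2, and for the interaction every gene gave 26.

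Leaving out 1 mouse, the genes called ranged from 102 to 221 for age under AL, 19 to 76 under EOD and 216 to 425 averaged over diets, and were 0 in the diet and interaction comparisons. The number of the 9 genes called ranged from 0 to 1 for age in AL mice (Gpr17 without the first old AL mouse, Bcas1 without the first young AL mouse) and from 0 to 1 in EOD mice (Gpr17 without the first old AL, the fourth old EOD or the third young AL mouse).

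Replicate numbers did not pair the mice, since same-numbered mice had correlations of their deviations from -0.113 to 0.113. With the replicate number as a block, 155 genes were called for age under AL, 35 under EOD and 250 averaged over diets, and Gpr17 differed by -0.58 (edgeR FDR 0.00997). Under the block the sign changed for Bmp4 in EOD mice (0.00926), Tcf7l2 averaged over diets (0.00426) and Cspg4 by diet in young mice (0.036).

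Other sign changes were those of Enpp6 in EOD mice (0.00044 with RLE size factors, 0.0014 with every gene, 0.0013 with at least 10 counts and 0.0019 with lane), Bmp4 in EOD mice (0.19 with lane), Cspg4 in AL mice (0.070 with lane) and by diet in young mice (0.15 with lane, 0.0011 with only the groups compared), Enpp6 and Bcas1 by diet in young mice (0.13 and -0.024 with voom) and Gpr17 by diet in old mice (-0.0096 with lane). With 1 mouse left out, log2 differences that changed sign for age in AL mice were those of Pdgfra from -0.0015 to 0.089, Cspg4 from -0.21 to 0.204, Bmp4 from -0.65 to 0.0089, Enpp6 from -0.33 to 0.014 and Tcf7l2 from -0.022 to 0.22. For age in EOD mice, the ranges were those of Bmp4 from -0.40 to 0.11, Enpp6 from -0.15 to 0.096 and Tcf7l2 from -0.31 to 0.17. For age averaged over diets, the ranges were those of Pdgfra from -0.042 to 0.013, Enpp6 from -0.18 to 0.0091 and Tcf7l2 from -0.12 to 0.12. For diet in young mice, the ranges were those of Cspg4 from -0.23 to 0.25, Bmp4 from -0.32 to 0.19, Enpp6 from -0.15 to 0.18 and Bcas1 from -0.065 to 0.078. For diet in old mice, the ranges were those of Pdgfra from -0.10 to 0.019, Gpr17 from -0.10 to 0.15, Bmp4 from -0.21 to 0.44 and Vcan from -0.055 to 0.13. For the interaction, the ranges were those of Bmp4 from -0.15 to 0.51, Enpp6 from -0.0104 to 0.32, Vcan from -0.18 to 0.031 and Tcf7l2 from -0.39 to 0.104.

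The alternatives were also applied to the called genes of the lists, a choice made after seeing the data. Fyn lost its call with every gene, the block and lane as a covariate. The averaged calls of Myrf, Apcdd1 and Hapln2 were lost with the block and with lane, that of Ncan with lane and that of Top2a with the block. In AL mice Mbp lost its call with the block (FDR 0.102), with lane and with only the groups compared, Myrf with voom and with only the groups compared, and Aspa and Klk6 with only the groups compared.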
